A study of Homo sapiens with 16 samples.

Results

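ACKR3 (ENSG00000144476) encodes atypical chemokine receptor 3, also called CXCR7, and is 1 of the 18227 genes with expression values in 16 RNA sequencing libraries. It lies on the + strand of chromosome 2, from 236567787 to 236582358 in GRCh38 (GENCODE annotation), as a protein-coding gene. It was chosen by its own measured knockout difference, because its level was higher in the A549 libraries and lower in the H2023 libraries labelled ZC3H12A knockout than in wild type. The knockout differences of ACKR3 are therefore given as a description, without a test. Its differences between cultures were not the ground of the choice and were tested. They share libraries with the knockout differences, so their p-values are not free of the choice.

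The libraries came from 2 established human cancer cell lines, A549 and H2023, both from non-small cell lung cancer. Each line had wild-type cells and cells labelled as a knockout of ZC3H12A, the gene of the RNase Regnase-1, and both were harvested after 3 days of normal culture or after 7 days of a culture that enriches for stem-like cells, called oncosphere culture here. The resulting 8 groups, each of 1 line, genotype and culture, held 2 libraries each. The library titles name 1 clone per line for the knockout, so its replicates share a clone. What the edit did cannot be told apart from whatever else sets that clone apart. Culture type and days in culture changed together and cannot be told apart either. The labels do not say whether replicates were separate cultures, so p-values measure only the spread between these libraries.

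Classical chemokine receptors signal through G proteins and steer cell migration. ACKR3 binds the chemokines CXCL12 and CXCL11, and also adrenomedullin and some opioid peptides, but recruits arrestins in place of coupling to G proteins in most cells. It is constantly internalised and recycled, and so clears ligand that would otherwise act on receptors such as CXCR4, the main signalling receptor for CXCL12. In lung and other carcinomas ACKR3 has been studied in adhesion, survival and invasion. Regnase-1 cleaves mRNAs at stem-loops in their 3′ UTRs, many of them of inflammatory genes.

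A library had 13824 to 14508 genes at 1 TPM or more. TPM, a unit made by the authors, scales transcripts within a library and corrects for transcript length. Sequencing depth is not retained in TPM, so the depth behind a single TPM value is not given. The share of TPM from mitochondrially encoded genes was 10.3% to 18.7% after normal culture and 19.5% to 25.6% after oncosphere culture. The targeted gene, ZC3H12A, averaged 32.8 ± 2.94 TPM in A549 wild type in normal culture, where the libraries labelled knockout averaged 18.4 ± 2.14 TPM (SD, n = 2). It was higher, not lower, in the libraries labelled knockout in the other 3 comparisons, where means went from 48.8 to 57.9 TPM in A549 oncosphere culture, from 28.3 to 41.5 TPM in H2023 normal culture and from 29.5 to 81.9 TPM in H2023 oncosphere culture. The edit itself was not examined, and every direction below is that of libraries labelled knockout against wild type. Of the markers of epithelial carcinoma cells, EPCAM, KRT8, KRT18, KRT19 and CDH1 summed to between 1450 and 10677 TPM in each library. KRT8 and KRT18 made up most of this sum. EPCAM was between 0.37 and 1.98 TPM in A549 normal culture and between 11.85 and 51.02 TPM in H2023. KRT19 was at 0.67 and 0.29 TPM in A549 labelled knockout in normal culture. Of the markers of other cell types, PECAM1 of endothelium stayed at or under 2.76 TPM, and COL1A1 and PDGFRA of fibroblasts summed to at most 8.61 TPM. Only 1 of 5 endothelial and 2 of 5 fibroblast markers have a row. The leukocyte markers CD68 and CD14, the only members of that list with a row in the tables used here, summed to between 31.3 and 226.5 TPM. Their sum was highest in the A549 oncosphere wild-type libraries, and its part in the results was not tested.

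ACKR3 mRNA was almost undetected in A549 wild-type cells in normal culture. It was listed at 0 TPM in replicate 1 and at 0.13 TPM in replicate 2. The A549 libraries labelled knockout in the same culture held 11.7 and 18.78 TPM, so the groups lay far apart. In oncosphere culture A549 wild type held 2.03 and 0.85 TPM, and those labelled knockout reached 10.14 and 15.83 TPM. Both A549 cultures thus had every library labelled knockout above every wild-type library.

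H2023 showed the opposite order. In normal culture its wild-type libraries held 15.59 and 16.84 TPM of ACKR3, and the libraries labelled knockout held 2.9 and 3.43 TPM. In oncosphere culture wild type held 8.16 and 6.85 TPM, and the libraries labelled knockout 2.02 and 2.19 TPM. Here every wild-type library lay above every library labelled knockout.

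**Figure D1:**
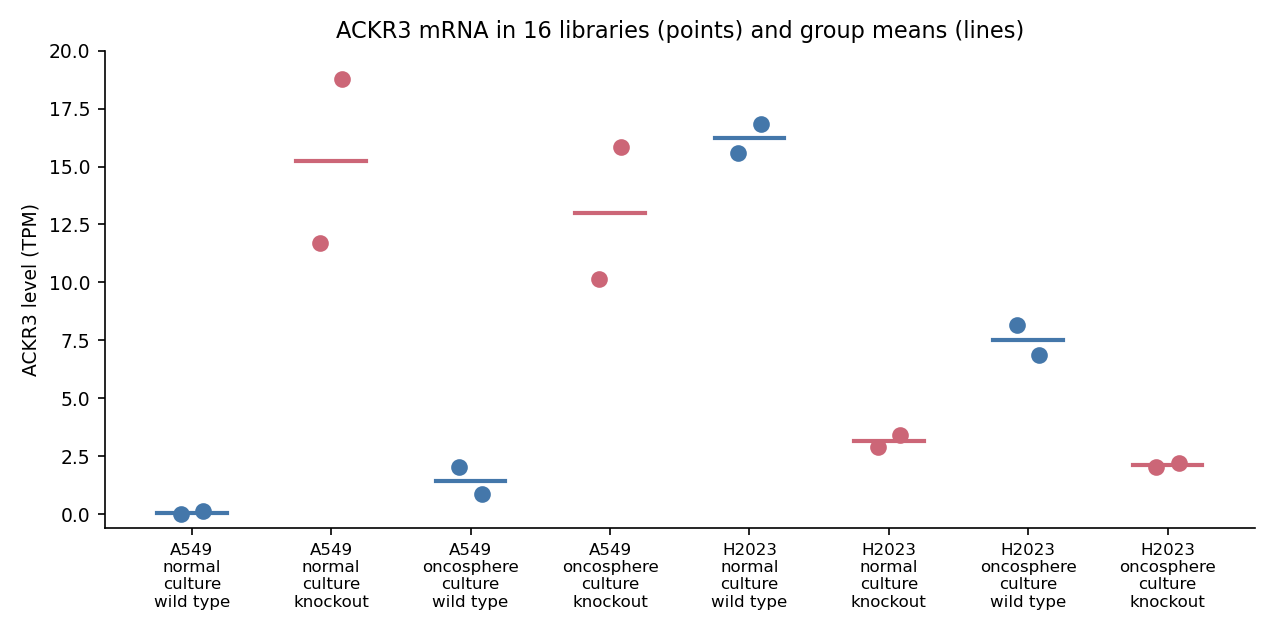
ACKR3 level in TPM (y axis) in each library (points) of the 8 groups of line, culture and genotype (x axis), with the group mean as a line. Libraries labelled knockout (red) lie above wild type (blue) in both A549 cultures and below it in both H2023 cultures, and A549 wild type in normal culture lies at 0 and 0.13 TPM.

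By mean level, ACKR3 was highest in H2023 wild type in normal culture, at 16.2 ± 0.884 TPM (SD, n = 2 for each group). A549 labelled knockout followed with 15.2 ± 5.01 TPM in normal and 13.0 ± 4.02 TPM in oncosphere culture. Neighbours among these 3 groups overlapped. H2023 wild type in oncosphere culture, at 7.51 ± 0.926 TPM, and H2023 labelled knockout in normal culture, at 3.17 ± 0.375 TPM, came next without overlap. H2023 labelled knockout in oncosphere culture, at 2.11 ± 0.12 TPM, and A549 wild type in oncosphere culture, at 1.44 ± 0.834 TPM, overlapped with each other. Against the other genes of a library, ACKR3 was of middle abundance where it was high. Its rank from the lowest was taken as a percentage of all genes, with tied genes given their mean rank. It was 57.9% and 67.5% in the A549 libraries labelled knockout in normal culture. In the A549 wild-type libraries of that culture it was 1.07% and 5.37%. Replicate 1 of these listed 390 genes at 0 TPM, ACKR3 among them, and all of them share the rank of 1.07%. The corresponding ranks in H2023 normal culture were 59.6% and 61.6% in wild type and 33.0% and 36.2% in the libraries labelled knockout.

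On the log2(TPM + 1) scale, which understates the change of genes with low values, the difference of libraries labelled knockout from wild type was 3.90 in A549 normal culture. The SD between replicates there was 0.332. In A549 oncosphere culture the difference was 2.53 (SD between replicates 0.464), with a 9.02-fold ratio of mean TPM. In H2023 the differences were -2.05 in normal culture (SD between replicates 0.106) and -1.45 in oncosphere culture (SD between replicates 0.118). Mean TPM was 5.12-fold and 3.57-fold lower there. No ratio is given for A549 normal culture, where 1 wild-type library is listed at 0. The authors' deposited tables give ACKR3 log2 fold changes of 6.91 ± 0.719 and 3.12 ± 0.416 (standard error) in A549 normal and oncosphere culture. In H2023 the authors' deposited tables give -2.18 ± 0.289 and -2.12 ± 0.373 in the same order of cultures. Among the authors' 18227 fold changes of a comparison, the A549 values ranked 1st and 132nd from the highest. The H2023 values ranked 276th and 214th from the lowest. The mean normalized count of ACKR3 over the 4 libraries of a comparison was 113 to 194 in the authors' deposited tables. The A549 difference was thus smaller in oncosphere than in normal culture, by 1.37 on the log2(TPM + 1) scale, and the difference between those wild-type groups is tested next.

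In wild-type cells of both lines ACKR3 differed between cultures, in opposite directions, though neither call held in every fit. Each test used limma over the 8 libraries of a line, two-sided, with Benjamini-Hochberg adjustment over all 18227 genes and a threshold of 0.05. In A549 wild type ACKR3 rose from 0 and 0.13 TPM in normal culture to 2.03 and 0.85 TPM in oncosphere culture. The log2(TPM + 1) difference was 1.16 with a standard error of 0.329 and a 95% interval from 0.40 to 1.91 (limma, adjusted p = 0.0240). In that comparison 40.6% of all genes were called. The call rested on single libraries. Without oncosphere replicate 1 the difference was 0.80 (adjusted p = 0.141), and without normal replicate 1 or 2 the adjusted p was 0.110 or 0.0635.

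In H2023 wild type ACKR3 fell from 15.59 and 16.84 TPM in normal culture to 8.16 and 6.85 TPM in oncosphere culture, with no overlap. Mean TPM was 2.16-fold lower, a difference of -1.02 with a standard error of 0.166 and a 95% interval from -1.42 to -0.62 (limma, adjusted p = 0.00979). Of all genes 21.4% were called there. The median of all genes moved by -0.18 in the same comparison. The adjusted p was 0.0502 in a fit of the 4 wild-type libraries alone and 0.0556 without normal replicate 2. The mitochondrial share of TPM also rose with oncosphere culture. With mitochondrially encoded genes left out and TPM rescaled, the differences were 1.35 in A549 (adjusted p = 0.0171) and -0.81 in H2023 (adjusted p = 0.0325).

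The culture effect in wild type differed between the lines. H2023 minus A549 gave -2.18 with a standard error of 0.392 and a 95% interval from -3.03 to -1.32 (limma over 16 libraries, adjusted p = 0.00445), where 14.1% of genes were called. This test was added after the values had been seen. Its wild-type libraries also entered the choice of ACKR3, so its p-value is not free of that choice.

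In the libraries labelled knockout no culture change of ACKR3 passed the threshold. In A549 the 11.7 and 18.78 TPM of normal culture overlapped with the 10.14 and 15.83 TPM of oncosphere culture. The difference was -0.21 with an interval from -0.97 to 0.55 (limma, adjusted p = 0.708), against 20.8% of genes called. In H2023 the 2.9 and 3.43 TPM of normal culture lay above the 2.02 and 2.19 TPM of oncosphere culture. The difference was -0.42 with an interval from -0.82 to -0.023 (limma, adjusted p = 0.110), against 26.9% of genes called. The line difference of this effect was -0.21 (limma, adjusted p = 0.814), with 7.21% of genes called. The intervals allow a fall of up to 0.97 in A549 and of up to 0.82 in H2023.

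**Figure D2:**
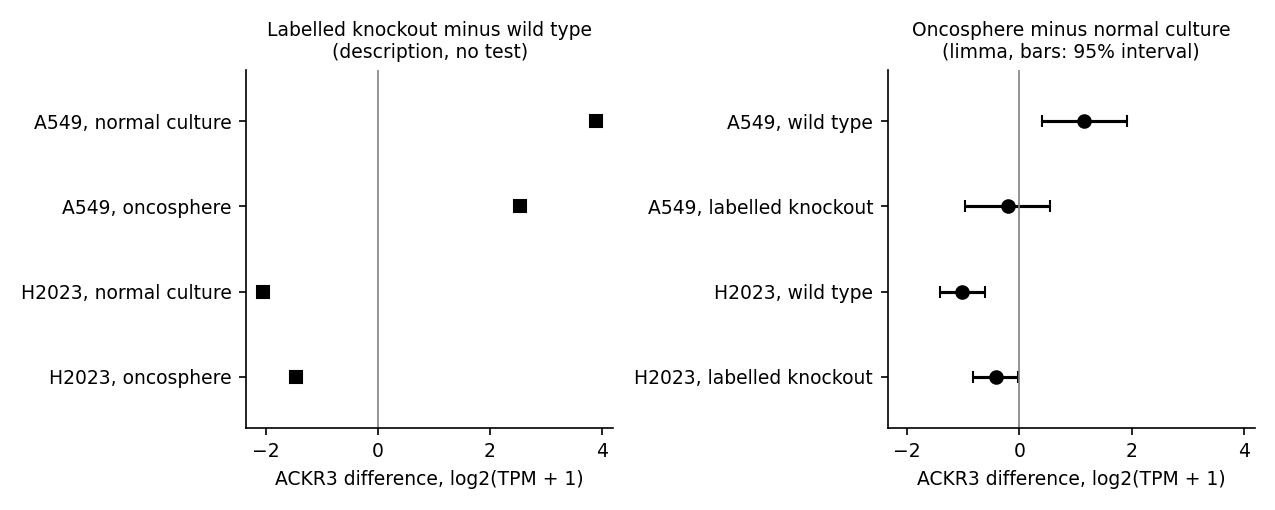
ACKR3 differences on the log2(TPM + 1) scale (x axis) for each line with culture or genotype (y axis). Left, libraries labelled knockout minus wild type, without error bars since ACKR3 was chosen for them, at 3.90 and 2.53 in A549 and at -2.05 and -1.45 in H2023. Right, oncosphere minus normal culture with 95% intervals of limma, which lie above 0 in A549 wild type and below 0 in H2023 wild type.

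The genes around ACKR3 function were described from lists of ligands, receptors that share its ligands, other chemokine receptors, arrestins and receptor kinases, endocytic genes, proteases that cut CXCL12, and transcription factors reported to act on ACKR3. The lists name 57 genes besides ACKR3, of which 33 have a row in the tables used here and 29 reached a group mean of 1 TPM. In A549 normal culture limma called 1 of the 33 higher and 4 lower in the libraries labelled knockout, where 10.8% of all genes were called, 4.54% higher and 6.28% lower. In A549 oncosphere culture it called 6 higher and 3 lower, against 13.2% of all genes, 6.04% higher and 7.2% lower. The authors' deposited tables call 7 of the 27 list genes with an adjusted p in A549 normal culture, against 22.1% of all genes with one, and 14 of 33 in A549 oncosphere culture, against 20.7%. In H2023 limma called 0 of the 33 in either culture, where it called 0% of all genes. At an unadjusted p under 0.05, 18.2% and 15.5% of all genes stood out in H2023 normal and oncosphere culture. The authors' deposited tables call 1 higher and 3 lower of 28 such list genes in H2023 normal culture, against 10.8% of their tested genes, 3.84% higher and 6.97% lower. For H2023 oncosphere culture the authors' deposited table calls 2 higher and 0 lower of 26, against 5.07%, 2.22% higher and 2.85% lower. Leaving out any 1 library of an A549 comparison leaves a group of 1. Calls were then lost among the list genes and among nearly all other genes alike. The median difference of the 33 genes was 0.02, -0.01, -0.02 and 0.11 in the 4 comparisons (A549 normal and oncosphere, then H2023 in the same order), beside -0.03, 0.03, 0.01 and 0.06 over all genes.

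Among the ligands, CXCL12, CXCL11 and the opioid precursors PENK, PDYN, PNOC and POMC have no row in the tables used here and were not analysed. MIF, a cytokine that signals through CD74 and chemokine receptors, was abundant in every library, between 667 and 1347 TPM, and passed the limma threshold in no knockout comparison. ADM, the precursor of adrenomedullin, ranged from 7.04 to 65.95 TPM. ADM fell in oncosphere culture in both lines and genotypes. In A549 wild type it went from 49.5 ± 4.72 to 23.6 ± 6.19 TPM and in H2023 wild type from 23.8 ± 3.91 to 7.22 ± 0.255 TPM (SD, n = 2). The ADM differences were -1.05 and -1.58 in these, and -1.84 and -1.47 in A549 and H2023 labelled knockout (limma, adjusted p = 0.00183, 0.00317, 4.67e-04 and 0.00213).

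Of the 7 genes listed as receptors that share ACKR3 ligands, 3 have a row, and these were mostly low. CXCR3, RAMP1, RAMP2 and RAMP3 have no row and were not analysed. CXCR4, which like ACKR3 lies on chromosome 2, held 0.05 to 2.15 TPM in the 16 libraries, with the highest value in replicate 2 of H2023 wild type in normal culture, whose replicate 1 held 0.22 TPM. ACKR3 was above CXCR4 in every library except the A549 wild-type libraries of normal culture, where CXCR4 was at 0.38 and 0.15 TPM. CALCRL, a part of the receptors for adrenomedullin, stayed at or under 1.79 TPM. It rose with oncosphere culture in wild type of A549 (0.65, limma adjusted p = 0.0308) and of H2023 (0.81, limma adjusted p = 0.0228).

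CD74, the surface receptor for MIF and the chaperone of class II antigen presentation, moved most in this list. In A549 normal culture wild type held 1.27 and 1.85 TPM of CD74, and the libraries labelled knockout 0.16 and 0.18 TPM (-1.12, limma adjusted p = 0.0207). The authors' deposited table gives an adjusted p of 0.0639 there. In A549 oncosphere culture the direction was the reverse, since wild type held 0.26 and 1.3 TPM and the libraries labelled knockout 20.28 and 17.99 TPM (3.56, limma adjusted p = 0.00512). In H2023 oncosphere culture wild type held 1.77 and 2.75 TPM and the other genotype 8.78 and 16.07 TPM, and the difference of 2.00 did not pass (limma adjusted p = 0.231). For H2023 oncosphere culture the authors' deposited table gives CD74 an adjusted p of 4.90e-05. In H2023 normal culture CD74 was lower under the knockout label, at 0.18 and 0.37 TPM beside 0.99 and 2.73 TPM in wild type without overlap. That difference of -1.10 did not pass by limma (adjusted p = 0.239), and the authors' deposited table gives an adjusted p of 0.0329. CD74 thus had the direction of ACKR3 in A549 oncosphere and H2023 normal culture and the opposite direction in the other two comparisons.

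The other chemokine receptors with a row were near or under 1 TPM in most groups. Of the atypical receptors, ACKR4, which scavenges CCL19 and CCL21, went from 0.12 to 1.06 TPM with oncosphere culture in A549 wild type (limma adjusted p = 0.0139). CCRL2, a chemerin-binding receptor listed at 0 in all 4 A549 libraries of normal culture, averaged 0.78 ± 0.113 TPM in A549 oncosphere wild type, above the 0.20 ± 0.0424 TPM of libraries labelled knockout (limma adjusted p = 0.0485, and 0.165 in the authors' deposited table). CCR1, a receptor for inflammatory CC chemokines, went from 0.11 ± 0.0283 to 1.54 ± 0.233 TPM in the same comparison (1.19, limma adjusted p = 0.00991). CCR6, the receptor for CCL20, went from 0.895 ± 0.445 to 0.035 ± 0.0354 TPM there (-0.85, limma adjusted p = 0.0455). CXCR5, the receptor for CXCL13, was the highest of the classical receptors, at 8.39 ± 0.354 TPM in A549 wild type in normal culture, and fell to 3.25 ± 0.82 TPM in oncosphere culture (-1.16, limma adjusted p = 0.00193).

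G-protein-coupled receptor kinases phosphorylate receptors such as ACKR3, and arrestins then bind them. ARRB1, encoding β-arrestin 1, differed in A549 in the direction opposite to ACKR3. In A549 normal culture wild type held 12.71 and 19.9 TPM of ARRB1 and the libraries labelled knockout 6.74 and 6.49 TPM (-1.15, limma adjusted p = 0.0433). In A549 oncosphere culture it held 32.81 and 42.01 against 21.92 and 20.65 TPM (-0.78, limma adjusted p = 0.0336). In H2023 its level was higher in the libraries labelled knockout without overlap, at 33.33 and 27.87 against 18.2 and 20.55 TPM in normal culture, but the differences of 0.63 and 0.49 in normal and oncosphere culture did not pass (limma adjusted p = 0.179 and 0.242). The authors' deposited tables give ARRB1 adjusted p-values of 0.0309 and 0.176 there. The ARRB1 difference of libraries labelled knockout from wild type was not the same in both lines. H2023 minus A549 gave 1.78 in normal culture (limma adjusted p = 0.00150) and 1.26 in oncosphere culture (limma adjusted p = 0.00625). In these line tests 12.1% and 16.3% of all genes were called. These line tests were added after the values had been seen.

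In A549 normal culture ARRB2, encoding β-arrestin 2, went from 65.2 ± 2.48 to 42.5 ± 4.12 TPM (-0.61, limma adjusted p = 0.0329). The kinase GRK6 was at 54.13 and 47.38 TPM in wild type, above the 32.55 and 26.89 TPM of libraries labelled knockout (-0.76, limma adjusted p = 0.0334). With ARRB1 these make 3 of 6 list members lower and 0 higher by limma there, where 6.28% of all genes were called lower and 4.54% higher. The kinases GRK2, GRK3 and GRK5 did not pass in that fit, but GRK2 did in a limma fit over the 8 A549 libraries (-0.50, adjusted p = 0.0340). The authors' deposited table also calls GRK5 higher there (0.57, adjusted p = 0.0425). The ARRB2 call was lost in a fit over the 8 A549 libraries (adjusted p = 0.0549), and that of ARRB1 without mitochondrially encoded genes (adjusted p = 0.0536). GRK6 was lower in oncosphere than in normal culture in both lines and genotypes, with differences from -1.23 in A549 wild type to -0.57 in H2023 labelled knockout (limma adjusted p = 8.02e-04 and 0.0270). With mitochondrially encoded genes left out, the H2023 calls of GRK6 were lost (adjusted p = 0.0652 in wild type and 0.0956 in libraries labelled knockout).

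The genes of internalisation and recycling were 6, encoding clathrin heavy chain, dynamin 2 and the endosomal GTPases RAB4A, RAB5A, RAB7A and RAB11A. Limma called 1 of the 6 in A549 oncosphere culture, against 13.2% of all genes, and 0 in A549 normal culture, against 10.8%. In H2023 it called 0 of the 6 and 0% of all genes. The gene called was CLTC, which went from 105 ± 0.0636 to 141 ± 7.70 TPM in A549 oncosphere culture (0.42, limma adjusted p = 0.0466). That call was lost with the replicate number as a block (adjusted p = 0.0552) and without mitochondrially encoded genes (adjusted p = 0.0592). The authors' deposited tables also call DNM2 lower in A549 oncosphere culture (-0.50, adjusted p = 0.0150) and CLTC lower in H2023 normal culture (-0.33, adjusted p = 0.0291). RAB11A, which serves recycling endosomes, rose with oncosphere culture in A549, by 0.47 in wild type and 0.36 in libraries labelled knockout (limma adjusted p = 0.00621 and 0.0332).

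Of the proteases that cut CXCL12, MMP2, a secreted gelatinase, was the list gene with the largest knockout difference in A549, 4.69 in normal and 5.47 in oncosphere culture (limma adjusted p = 0.00151 and 0.00194). Its H2023 differences, -0.34 and 1.71, did not pass (limma adjusted p = 0.303 and 0.350). DPP4, a membrane peptidase, rose with oncosphere culture in A549 wild type, from 0.16 to 2.13 TPM (1.43, limma adjusted p = 5.20e-04), and in A549 labelled knockout, from 0.36 to 2.12 TPM (1.19, limma adjusted p = 0.00265).

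Among the transcription factors, the hypoxia-inducible factors differed between genotypes in A549 oncosphere culture. HIF1A was at 244.3 and 224.96 TPM in wild type, below the 499.13 and 515.72 TPM of libraries labelled knockout (1.11, limma adjusted p = 0.00511). EPAS1 went from 75.9 ± 4.48 to 118 ± 19.3 TPM (0.62, limma adjusted p = 0.0478), a call lost without mitochondrially encoded genes (adjusted p = 0.0645). In H2023 the HIF1A differences were 0.25 and 0.88 and those of EPAS1 -0.64 and -0.73, none past the limma threshold (adjusted p = 0.374, 0.252, 0.294 and 0.333). The authors' deposited tables call HIF1A higher in H2023 oncosphere culture (adjusted p = 0.00580) and in A549 normal culture (adjusted p = 5.07e-04), where limma gave 0.48 (adjusted p = 0.0842). HIC1, a repressor, was low, between 0.3 and 1.45 TPM. NFKB1, a subunit of NF-κB, had differences of -0.75 and -0.62 in A549 and 0.29 and 0.23 in H2023, none past the limma threshold (adjusted p = 0.0727, 0.112, 0.302 and 0.432). The authors' deposited tables call NFKB1 lower in both A549 comparisons (adjusted p = 1.28e-04 and 0.0170). RELA stayed between 36.9 and 59.9 TPM.

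**Figure D3:**
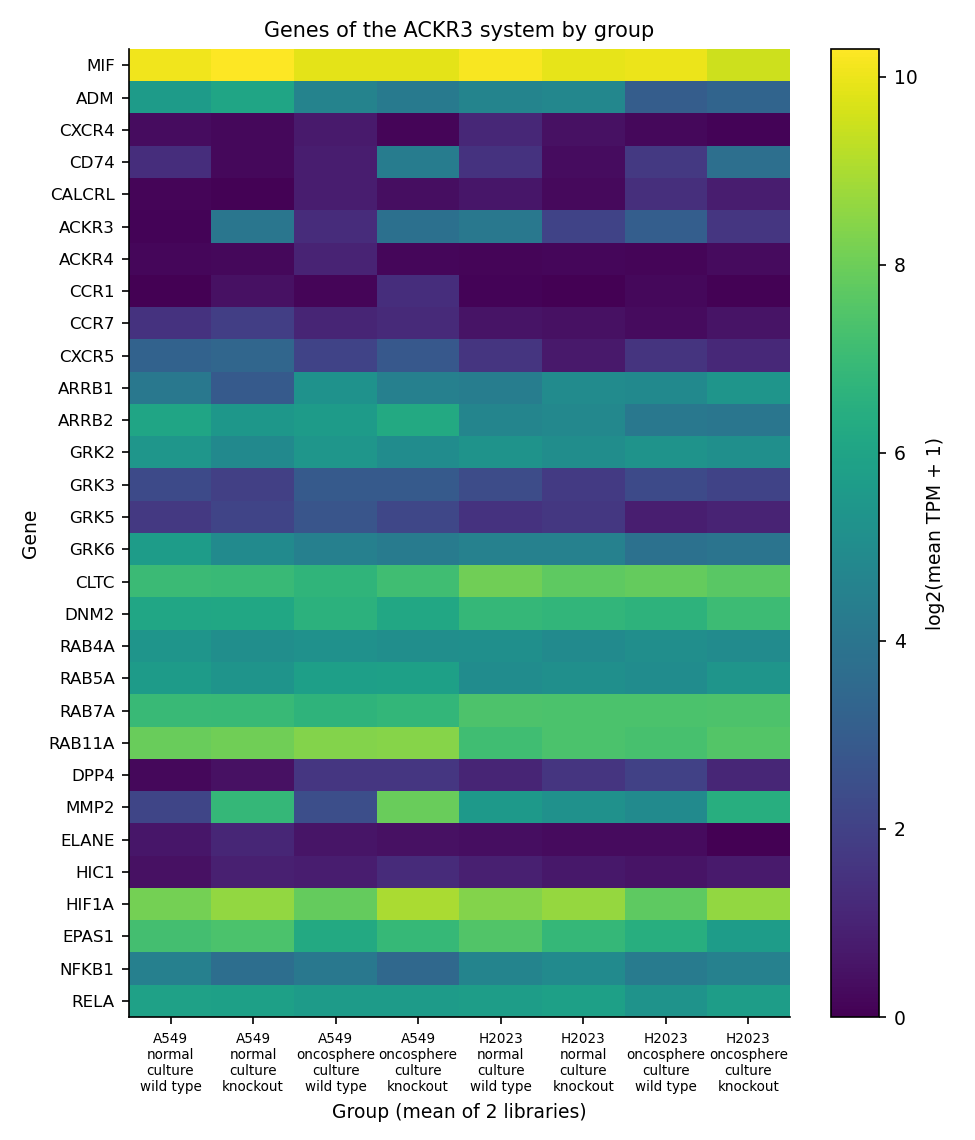
Group mean level (color, log2 of mean TPM + 1) of ACKR3 and of each list gene that reached a group mean of 1 TPM (rows) in the 8 groups (columns, mean of 2 libraries). CXCR4 is dark in every group, MIF is bright in every group, and ACKR3 alternates between dark and mid levels with line and genotype.

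With oncosphere culture, limma called 10 of the 33 list genes higher and 5 lower in A549 wild type, and 8 higher and 3 lower in A549 labelled knockout. In H2023 it called 2 higher and 6 lower in wild type, and 1 higher and 6 lower in libraries labelled knockout. Of all genes 19% were called higher and 21.6% lower in A549 wild type, 10.9% and 9.87% in A549 labelled knockout, 3.96% and 17.4% in H2023 wild type, and 7.68% and 19.2% in H2023 labelled knockout. The H2023 wild-type count was 8 in all, 1 in a fit of the 4 wild-type libraries and 3 without mitochondrially encoded genes.

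Few genes shared the directions of ACKR3 in all 4 knockout comparisons. The authors' deposited tables hold 14753 genes with an adjusted p in every table. Of these, 35 were called higher in both A549 and lower in both H2023 comparisons (0.237%), ACKR3 among them. The mirror image, lower in A549 and higher in H2023, held 28 genes (0.19%). A limma fit over the 8 libraries of each line gave 5 genes in the directions of ACKR3. Ordered by the smallest of their 4 absolute fold changes in the authors' deposited tables, ITGA4, BMPER, LRP1B and HMCN1 came before ACKR3. FBN2, TSPAN7, SDC2, COL5A2 and LINC02762 followed it. ITGA4 encodes an integrin subunit, BMPER a secreted modulator of BMP signalling, and FBN2 and COL5A2 matrix proteins. Of the 35 genes, 17 lie on chromosome 2, as does ACKR3, and of the 28 mirror-image genes 1 does. Chromosome 2 holds 6.36% of the 14753 genes.

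Likeness in level over the 16 libraries, measured by Pearson's r of log2(TPM + 1), was highest with genes of which several lie on chromosome 2. The measure is a description, because libraries of a group share a clone and a culture and the knockout pattern of ACKR3 enters it. Of 15205 genes with a symbol and a group mean of at least 1 TPM, the 10 most like ACKR3 were RHOBTB3 (r = 0.916), ITGA4 (0.915), RBMS1 (0.903), PRKRA (0.902), ZDBF2 (0.902), TCEA2 (0.877), SLC12A8 (0.875), CTDSP1 (0.872), RND3 (0.870) and STK25 (0.867). Of these, 7 lie on chromosome 2, which holds 6.68% of the 15205 genes. RHOBTB3, TCEA2 and SLC12A8 lie on chromosomes 5, 20 and 3. Among the 50 most alike, 23 lie on chromosome 2.

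ITGA4, the integrin α4 chain, had the same order of genotypes as ACKR3 in each line and culture. It held 0.45 and 0.24 TPM in A549 wild type and 7.43 and 9.07 TPM in A549 labelled knockout in normal culture. In H2023 normal culture wild type held 10.69 and 14.82 TPM, against 0.84 and 0.93 TPM under the knockout label. The 5 genes with the lowest r were PNP (-0.890), RBPMS (-0.886), DUSP8 (-0.885), CCDC198 (-0.852) and XK (-0.849), of which 0 lie on chromosome 2. With Spearman's rho 5 of the 10 most alike genes were again among the top 10, and with r over the 8 group means 6 were.

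**Figure D4:**
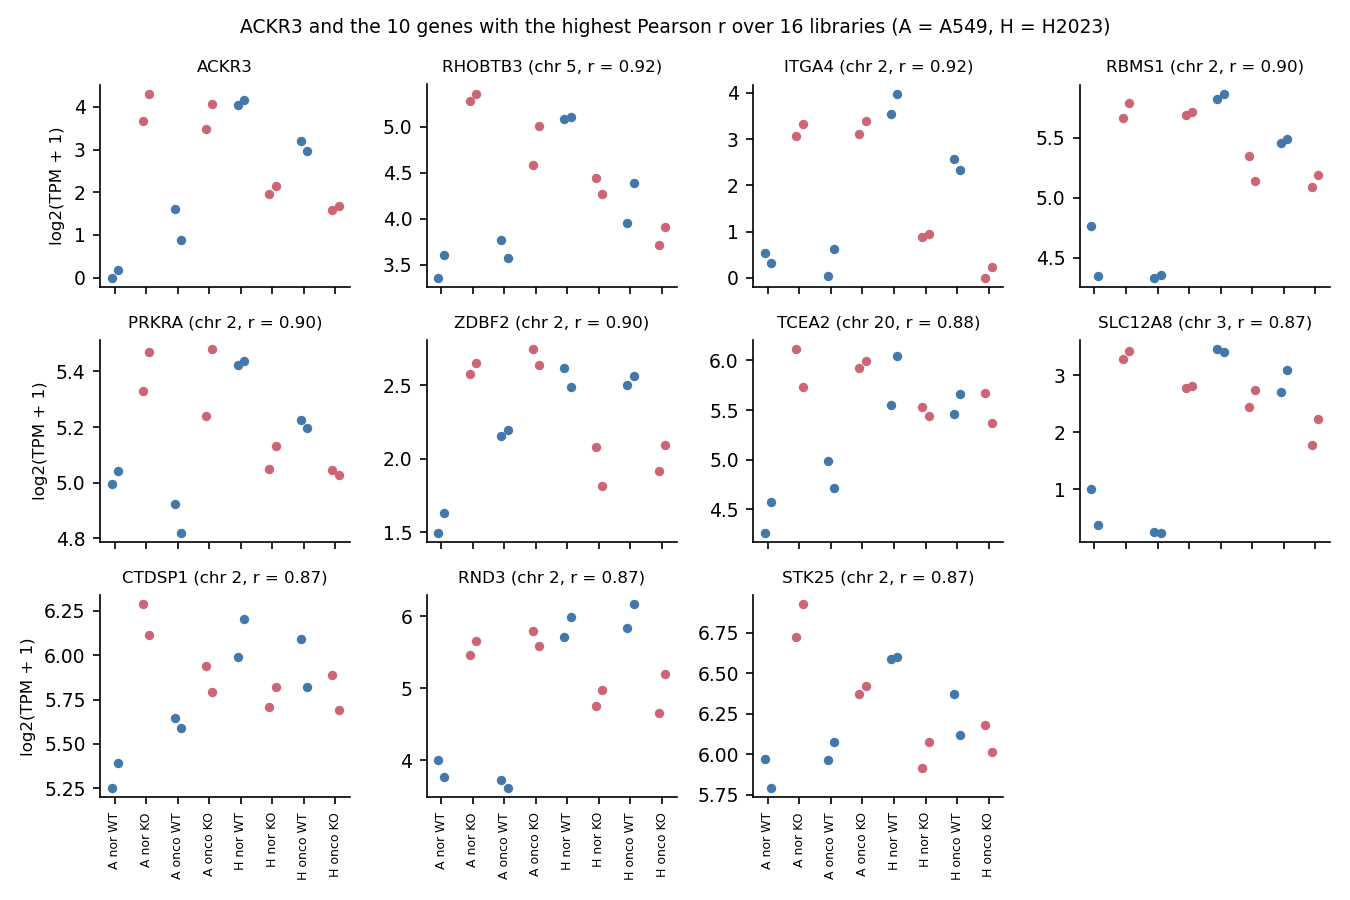
Levels as log2(TPM + 1) (y axes, each panel with its own range) of ACKR3 and the 10 genes most like it in each library (points), by group (x axis, wild type blue, labelled knockout red), with chromosome and r in each title. In ACKR3 and ITGA4 the points of A549 labelled knockout and H2023 wild type are high and those of A549 wild type and H2023 labelled knockout low, and 7 of the 10 panels are of chromosome 2 genes.

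The nearest genes were examined next. Within 1 Mb of the ACKR3 start 5 other genes have a row. In A549 normal culture limma called 2 of the 5 higher in libraries labelled knockout, in A549 oncosphere culture 1 higher, and in H2023 0, against the rates of all genes given above. COPS8, a subunit of the COP9 signalosome (chromosome 2, 237085312 to 237100466), went from 59.8 and 47.46 to 83.52 and 93.1 TPM in A549 normal culture (0.72, limma adjusted p = 0.0396). In A549 oncosphere culture it went from 35.51 and 36.15 to 81.93 and 78.16 TPM (1.14, limma adjusted p = 0.00460). COPS8 was lower without overlap in H2023, but its differences of -0.23 and -0.40 did not pass (limma adjusted p = 0.290 and 0.311). The COPS8 difference of libraries labelled knockout from wild type was not the same in both lines. H2023 minus A549 gave -0.94 in normal and -1.54 in oncosphere culture (limma adjusted p = 0.00592 and 1.87e-04).

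MLPH, which links melanosomes to myosin (chromosome 2, 237485428 to 237555318), rose in A549 normal culture from 183 ± 9.94 to 293 ± 0.474 TPM (0.67, limma adjusted p = 0.0199). In A549 oncosphere culture its difference was -0.24 (limma adjusted p = 0.290). The remaining neighbours were low. GBX2, a homeobox gene, had group means between 0.53 and 3.14 TPM, and COL6A3, a collagen VI chain, and COPS8-DT, a transcript antisense to the start of COPS8, passed the limma threshold in no knockout comparison. For COL6A3 in A549 normal culture, at 0.515 ± 0.332 against 0.03 ± 0.0141 TPM in wild type, the authors' deposited table gives 3.77 on the log2 scale (adjusted p = 2.12e-05, and 0.103 by limma). Whether the counting used strand is not given in the sources used here, so COPS8-DT and COPS8 reads may not be separable. COPS8 correlated with ACKR3 at r = 0.743 over the 16 libraries and ranked 83rd.

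Genes of chromosome 2 shifted far beyond the neighbourhood of ACKR3. The region was looked at, and its boundary at 90 Mb set, after the values had been seen. For 408 genes other than ACKR3 with a mean of at least 5 TPM that start at 90 Mb or beyond, the median difference of libraries labelled knockout from wild type was 0.35 in A549 normal and 0.50 in A549 oncosphere culture. In H2023 it was -0.28 and -0.29. The share of these genes that were higher was 82.6% and 82.8% in A549, and the share that were lower was 87.0% and 82.4% in H2023. The 296 genes before 90 Mb had medians of -0.09 and 0.06 in A549 and of -0.18 and -0.16 in H2023. The 10204 genes of the other chromosomes had medians of -0.10 and 0.06 in A549 and 0.04 and 0.08 in H2023. In A549 the shift thus began between the windows before and after 90 Mb, and in H2023 the medians on both sides of it were below 0.

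By limma, 80 of the 408 genes were higher and 11 lower in A549 normal culture, where 4.54% of all genes were called higher and 6.28% lower. Of the 408, 151 were higher and 15 lower in A549 oncosphere culture, against 6.04% and 7.2% of all genes. In H2023 limma called 0 of the 408, as it did of all genes. The authors' deposited tables there call 5 higher and 113 lower in normal culture, against 3.84% and 6.97% of their tested genes. For oncosphere culture the authors' deposited table calls 2 higher and 57 lower, against 2.22% and 2.85%. Of 23 chromosomes, chromosome 2 had the highest median in both A549 comparisons and the lowest in both H2023 comparisons. Other chromosomes also stood apart in H2023. Chromosome 22 had medians of -0.22 in normal and -0.18 in oncosphere culture, chromosome 1 of -0.20 and -0.13, and chromosome 6 of 0.23 and 0.34. In oncosphere culture the median of chromosome 6 was larger in size than the -0.23 of chromosome 2. In single libraries, the mean deviation of the 408 genes relative to other chromosomes lay between -0.23 and -0.21 in A549 wild type and between 0.18 and 0.24 in A549 labelled knockout. It lay between 0.12 and 0.23 in H2023 wild type and between -0.22 and -0.11 in H2023 labelled knockout. Genotypes did not overlap in either line, but the region was set after its values had been seen. This separation is therefore a description only.

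The ACKR3 differences were larger in size than the medians of this region. Because ACKR3 was chosen for its knockout differences, its place among the 408 genes is a description only. Only 1 and 2 of the 408 genes had a difference at or above that of ACKR3 in the A549 comparisons, and 5 and 5 a difference at or below it in the H2023 comparisons. The middle 50% of the 408 genes lay between 0.12 and 0.59 in A549 normal culture, where ACKR3 had 3.90. DNA was not measured here, and the part of the regional shift in the ACKR3 difference was not tested.

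**Figure D5:**
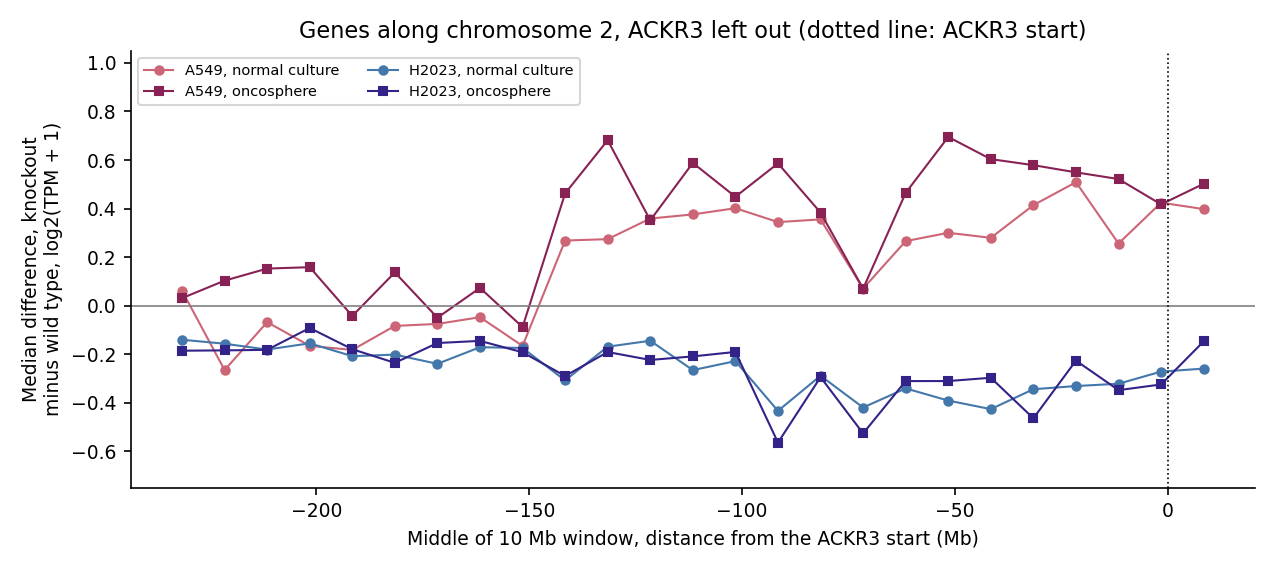
Median difference of libraries labelled knockout from wild type, on the log2(TPM + 1) scale (y axis), of the genes in each 10 Mb window of chromosome 2, by distance of the window's middle from the ACKR3 start (x axis). In the windows from 90 Mb on, the A549 medians lie above 0 and the H2023 medians below 0, and windows hold 6 to 56 genes.

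The ACKR3 mRNA was last searched for the kind of stem-loop that Regnase-1 cleaves. The search took at least 5 Watson-Crick pairs around a loop of 3 bases (pyrimidine, purine, pyrimidine), on the mRNA strand only. The 3′ UTR of ACKR3, 804 bases long in the GENCODE annotation, held 0 such stem-loops. Of 14019 genes with a 3′ UTR searched, 27% held at least 1, and of the 810 with a 3′ UTR within 10% of the ACKR3 length, 14.8% did. A search by letters does not show whether Regnase-1 acts on the mRNA.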

How the data were processed

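The study measured mRNA in 16 libraries. From each RNA sample 1 µg went into a TruSeq library of the stranded mRNA kind, per the labels' protocols. HISAT2 and StringTie are named, with the build GRCh38, in the submitters' processing notes. The authors deposited 4 tables, 1 per line and culture, with TPM per library. Beside it the authors' tables give a signal per gene, the mean normalized count of 4 libraries. The log2 fold changes (knockout against wild type), their standard errors, the statistic (a score), the p-values and the adjusted p-values are also the authors', per the file headers. Directions follow the fold change, because the score has the opposite sign in every row. Repeated gene identifiers (119) were counted once, leaving 18227 genes. The line of a library was read from its table's name.

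TPM values are not counts and retain no depth, so limma (version 3.58.1, R 4.3.3, trend) was run on log2(TPM + 1) without a filter. Knockout comparisons used the 4 libraries of a table, culture comparisons the 8 libraries of a line, and line differences all 16. P-values were two-sided and adjusted by Benjamini-Hochberg over all genes (threshold 0.05). The test was checked on simulated data. Gene positions came from GENCODE version 29. ACKR3 and the lists were chosen with earlier results of these data known.

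Named genes were ACKR3, list members, the 10 most and 5 least alike genes, the 10 genes of shared direction with the largest smallest fold change, neighbours within 1 Mb, and ZC3H12A. Alternatives were a pseudocount of 0.1, genes of at least 1 TPM, TPM without mitochondrially encoded genes, other sets of libraries, a replicate block, each library left out, and the authors' results.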

Additional observations from a re-analysis of the deposited data

Results flagged for a closer look

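The knockout difference of ACKR3 had opposite signs in the lines in both cultures, 3.90 in A549 and -2.05 in H2023 normal culture, and 2.53 and -1.45 in oncosphere culture (log2(TPM + 1)). This difference between lines was not tested, since ACKR3 was chosen for it. The culture difference of ACKR3 in wild type differed between the lines by -2.18, H2023 minus A549 (limma, adjusted p = 0.00445). The libraries of that test also entered the choice of ACKR3.

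Among list genes and neighbours, the difference of libraries labelled knockout from wild type was compared between lines (H2023 minus A549). In normal culture it differed past the limma threshold for CCR6 (0.92), ARRB1 (1.78), MMP2 (-5.02), HIC1 (-0.69), NFKB1 (1.04), COPS8 (-0.94) and MLPH (-0.81). In oncosphere culture it differed for ACKR4 (0.99), CCRL2 (0.76), CCR1 (-1.37), CCR6 (1.34), ARRB1 (1.26), CLTC (-0.63), MMP2 (-3.76), EPAS1 (-1.35), NFKB1 (0.85) and COPS8 (-1.54). Of all genes 12.1% and 16.3% differed in this way in the respective cultures.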

How the results depend on the processing

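The ACKR3 knockout differences kept their sign under every alternative run. With a pseudocount of 0.1 they were 6.62, 3.17, -2.32 and -1.78 (A549 normal and oncosphere, then H2023), and the authors' deposited tables give values of 6.91, 3.12, -2.18 and -2.12. Leaving out 1 library gave 3.58 to 4.22, 2.18 to 2.89, -2.14 to -1.96 and -1.56 to -1.34. The culture differences of ACKR3 then ranged from 0.80 to 1.51 in A549 wild type, from -0.53 to 0.11 in A549 labelled knockout, from -1.13 to -0.91 in H2023 wild type and from -0.51 to -0.33 in H2023 labelled knockout. The A549 labelled knockout value reversed to 0.11 without normal replicate 2 and to 0.087 without oncosphere replicate 1. With a pseudocount of 0.1 the A549 wild-type difference was 3.23. In a fit of 4 libraries the H2023 wild-type difference of -1.02 did not pass.

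The number of genes called in the knockout comparisons was 1971, 2413, 0 and 0 by limma and 3639, 3628, 1665 and 816 in the authors' deposited tables. In H2023 normal culture it was 147 over 8 libraries and 453 among genes of at least 1 TPM, and in H2023 oncosphere culture 281 and 6. Leaving out 1 library, which leaves a group of 1 assumed to vary like the others, gave 0 in 3 comparisons and 0 to 38 in A549 oncosphere culture. For culture it gave 4924 to 6105 in A549 wild type (7392 with all), 2010 to 2436 in A549 labelled knockout (3784), 1697 to 2630 in H2023 wild type (3901) and 2090 to 3171 in H2023 labelled knockout (4895). H2023 wild type gave 1105 with 4 libraries and 2285 without mitochondrially encoded genes.

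The authors' deposited tables call 14 list genes in A549 oncosphere culture and 4 and 2 in the H2023 cultures, against 9, 0 and 0 by limma. In H2023 wild-type culture they numbered 1 with 4 libraries and 3 without mitochondrially encoded genes, against 8. Leaving out 1 library lost the calls of list genes and neighbours in the A549 knockout comparisons, as it did for nearly all genes. For culture it gave 10 to 12, 5 to 8, 2 to 4 and 2 to 3 list genes, against 15, 11, 8 and 7. Of the 10 most alike genes, 5 were shared with Spearman's rho, 6 with group means and 4 with a pseudocount of 0.1. Genes in the directions of ACKR3 numbered 5 by limma, against 35. The cause of these changes was not tested.

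Replicate numbers are shared by the groups. Deviations of libraries with the same number correlated at 0.025 to 0.473, and with 2 numbers this does not show pairing. With the replicate block, the ACKR3 culture differences had the same calls (adjusted p = 0.0288, 0.708, 0.0143 and 0.121), and no count moved by over 1.5 times. TPM holds no depth of a single library, and what the 0 of ACKR3 in 1 A549 library allows was not estimated. The authors' mean normalized counts over the 4 A549 normal libraries were 166 for ACKR3 and 20540195 in sum over all genes.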
